A study of Homo sapiens with 16 samples.

Results

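Motif mutants of 3 promoter inserts were followed: an NPRL3 promoter insert taken as sense (NPRL3), one whose name marks it as antisense (NPRL3-anti) and the RPLP1 promoter. Whether NPRL3 and NPRL3-anti hold the same bases is not known. The members are all inserts of the short motif library whose locus name holds NPRL3 but no enhancer tag, or is RPLP1. They come to 8 of the 499 inserts in the short libraries and of the 78 inserts in the motif library, which covers 27 loci and 51 mutants. NPRL3 was present as an unmutated control (Ctrl) and as mutants of the NRF1 and Usf2 motifs, NPRL3-anti as Ctrl and an NRF1 mutant, and RPLP1 as Ctrl and mutants of the NRF1 and NFY motifs. Each insert carried 4 barcodes, 32 in all. All cells were K562, a human erythroleukemia line labelled as wild type and without any treatment, so every result holds for 1 cell line. The short inserts (200 positions) were placed in an episomal vector, which stays outside the chromosomes, or in a lentiviral vector, which integrates into them. Each vector had 2 TSS-MPRA replicates and 2 matching DNA replicates, 8 of the 16 samples of the series. TSS-MPRA is a reporter assay that enriches capped RNA and reads its first base, so it gives both how much RNA an insert makes and where in the insert transcription starts.

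NPRL3 encodes a subunit of the GATOR1 complex, which restrains mTORC1 signalling when amino acids are scarce, and its introns hold the enhancers of the alpha-globin genes in erythroid cells. RPLP1 encodes an acidic stalk protein of the large ribosomal subunit, and promoters of ribosomal protein genes commonly start transcription at a few adjacent bases. NRF1 (nuclear respiratory factor 1) binds a palindromic GC-rich site in many housekeeping promoters, USF2 is a basic helix-loop-helix factor that binds the E-box CACGTG, and NFY is a trimeric factor that binds the CCAAT box.

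The promoters named by these inserts are shown from RefSeq (GRCh38.p14, both genes matched), because their letters show which copies of the 3 motifs lie near the annotated starts. They are the annotated promoters, read 5′ to 3′ on the strand of the gene. The names of the motif inserts carry no coordinates, so where an insert begins and which bases were changed in a mutant were not established here. Capitals mark an NRF1-type site (GCGC and TGCGC with any 1 base between them) and CCAAT, each on either strand, and in the short stretch of NPRL3 the E-box CACGTG.
RPLP1, chr15:69452668-69452817, plus strand, upstream of the start: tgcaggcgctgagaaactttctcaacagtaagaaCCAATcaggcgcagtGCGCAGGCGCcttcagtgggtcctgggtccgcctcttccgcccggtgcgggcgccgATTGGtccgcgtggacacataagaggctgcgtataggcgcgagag
NPRL3, chr16:138674-138823, minus strand, upstream of the start: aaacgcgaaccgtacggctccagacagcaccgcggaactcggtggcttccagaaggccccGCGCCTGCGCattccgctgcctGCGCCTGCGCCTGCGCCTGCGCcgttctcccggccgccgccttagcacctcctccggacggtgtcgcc
NPRL3, chr16:138631-138660, minus strand, downstream of the start: cccggagcgtggCACGTGggttggtaactg
The RPLP1 window holds 1 NRF1-type match, at chr15:69452717-69452726, and a CCAAT match in each orientation, the nearer one 45 bases upstream of the annotated start at chr15:69452818. The NPRL3 window holds NRF1-type matches that begin 90, 68, 62 and 56 bases upstream of the annotated start at chr16:138673, the last 3 of which overlap and form the longer run of capitals. The E-box of NPRL3 covers bases 26 to 31 of the annotated transcript. Over 35116 RefSeq promoter windows of 300 bases each, the length of the full RefSeq windows from which these stretches were taken and longer than the stretches shown, 5.78% hold the NRF1-type site, 7.26% hold CACGTG and 34.6% hold CCAAT on either strand. A match is a description of these letters and not a measured binding site.

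The short libraries held 19020540 to 21571370 RNA reads in the episomal and 11140433 to 11741702 in the lentiviral vector. DNA totals were 15286382 and 1698930 reads in episomal replicates 1 and 2, and 8614823 and 9989471 in the lentiviral vector, so episomal replicate 2 had the shallowest DNA library. Member inserts had between 1903 and 37055 DNA reads in the episomal libraries and between 7333 and 45712 in the lentiviral ones, summed over their barcodes. RNA reads per member insert ran from 1569 to 458220 in the episomal and from 802 to 226049 in the lentiviral libraries. RNA per DNA below is the share of the library's RNA reads divided by the share of its DNA reads, with 1 read added to each, and an insert's level is the geometric mean over its 4 barcodes. Since a mutant and its Ctrl sit in the same libraries, they were compared over barcodes with limma, with Benjamini-Hochberg adjustment over all mutants of the motif library. The labels do not say whether replicates came from separate transfections, and the p-values measure the spread between barcodes only.

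Among the unmutated inserts, RPLP1 had the highest RNA per DNA of the 27 loci in both vectors. Its Ctrl measured 8.63 and 8.03 in episomal replicates 1 and 2 and 4.57 and 4.35 in the lentiviral replicates. The Ctrl of NPRL3-anti measured 2.53 and 2.50 in the episomal and 0.933 and 1.04 in the lentiviral replicates, rank 5 and rank 14. The Ctrl of NPRL3 measured 0.584 and 0.609 in the episomal and 0.197 and 0.186 in the lentiviral replicates, rank 10 and rank 20. NPRL3-anti thus gave more RNA than NPRL3 in all 4 libraries. The ranges of their barcodes did not overlap: in episomal replicate 1 the lowest NPRL3-anti barcode stood at 2.33 and the highest NPRL3 barcode at 0.792, and in lentiviral replicate 1 they stood at 0.852 and 0.362. This order of the Ctrl inserts is a description with no test.

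Mutation of the Usf2 motif raised RNA from the NPRL3 promoter in both vectors. The mutant measured 3.78 and 4.59 RNA per DNA in episomal replicates 1 and 2, against 0.584 and 0.609 for the Ctrl. In the lentiviral replicates the mutant measured 1.79 and 1.78, against 0.197 and 0.186. Every mutant barcode lay above every Ctrl barcode in each of the 4 libraries: in episomal replicate 2, where the ratio between them was smallest, the lowest mutant barcode stood at 3.54 and the highest Ctrl barcode at 1.02. On the log2 scale the mutant was 2.80 ± 0.29 (SE, 4 against 4 barcodes; 6.98-fold) above the Ctrl in the episomal vector (limma, adjusted p = 1.68e-05). In the lentiviral vector it was 3.22 ± 0.35 (9.32-fold) above it (limma, adjusted p = 3.52e-05). It was the highest difference of the 48 mutants tested in the episomal and of the 51 tested in the lentiviral vector. In the episomal vector 52.1% of all mutants passed the test, 8.33% as higher and 43.8% as lower than their Ctrl. In the lentiviral vector 60.8% passed, 19.6% as higher and 41.2% as lower. A mutant with more RNA than its Ctrl was therefore in the smaller class in both vectors.

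The added RNA of the Usf2 mutant started at other bases than the RNA of the Ctrl. Positions of each locus are given as the distance from its Ctrl's most used start, taken on average over the 4 libraries, with positive values downstream. Shares of an insert's reads, here and below, come from profiles averaged over its 4 barcodes with equal weight, whatever their read numbers. The most used start of the NPRL3 Ctrl held 32.8% and 32.7% of its RNA reads in the episomal and 42.3% and 36% in the lentiviral replicates, and the next most used lay 26 and 32 bases downstream. In the mutant the Ctrl's most used start held 5.89% and 5.52% in the episomal and 6.22% and 6.34% in the lentiviral replicates. The starts that led instead lay 30 bases downstream, with 29.2% and 29.6% in the episomal and 28.9% and 29.8% in the lentiviral replicates, and 24 bases downstream, with 26.4%, 25.8%, 31.1% and 31%. In the Ctrl these same bases held between 0.924% and 2.09% and between 0.222% and 0.863%. The stretch from 19 to 30 bases downstream, chosen after the profiles were seen, held 83.3% and 84.1% of the mutant's reads in the episomal and 85% and 85.7% in the lentiviral replicates. The Ctrl had 23% and 24.7%, and 15.5% and 15.3%, of its reads there. Inside that stretch the bases differed too: the Ctrl's start 26 bases downstream, with 10.9% to 17.2% of its reads, held 0.693% or less in the mutant.

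The mean start of the Usf2 mutant lay 22 and 22.5 bases downstream of the Ctrl's most used start in the episomal replicates, against 7.28 and 8.88 for the Ctrl itself. In the lentiviral replicates it lay 22.1 and 22.2 bases downstream, against 7.89 and 9.41. The mutant's means were above those of the Ctrl in all 4 libraries and differed little between its barcodes, with an SD of 0.907 to 1.02 bases. The shift was 14.1 ± 2.3 bases in the episomal (limma, adjusted p = 0.00223) and 13.5 ± 1.3 bases in the lentiviral vector (limma, adjusted p = 4.48e-05). Start shifts passed the same test for 33.3% of all mutants in the episomal vector and 59.2% in the lentiviral one. Taking the median in place of the mean start gave 19.6 bases in the episomal vector, with an adjusted p of 0.102 (limma).

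RNA from the Ctrl's own start site did not pass the test in the Usf2 mutant. RNA reads within 5 bases of the Ctrl's most used start, per DNA, differed by 0.31 ± 0.23 on the log2 scale in the episomal (limma, adjusted p = 0.240) and 0.56 ± 0.30 in the lentiviral vector (limma, adjusted p = 0.129). RNA reads from all other positions were 3.46 ± 0.36 higher in the episomal (11-fold; limma, adjusted p = 3.78e-05) and 3.98 ± 0.41 higher in the lentiviral vector (15.8-fold; limma, adjusted p = 2.59e-05). The window was centred on the most used start of the Ctrl in the other vector, and this split was added after the profiles had been seen. Over all mutants 60.4% passed inside the window and 37.5% outside it in the episomal vector, and 72.5% and 58.8% in the lentiviral one. Not every position outside the window gained RNA in the Usf2 mutant. At 26 bases downstream, RNA per DNA as the plain mean over barcodes was 0.0309 and 0.0373 in the episomal replicates, against 0.0989 and 0.118 in the Ctrl. At 32 bases downstream it was 0.00889 and 0.0118, against 0.0547 and 0.0700. Both starts were lower than in the Ctrl in the lentiviral replicates too. These single positions were not tested.

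Mutation of the NRF1 motif in the sense NPRL3 promoter left its total RNA without a called difference. The mutant measured 0.478 and 0.486 RNA per DNA in the episomal replicates, against 0.584 and 0.609 for the Ctrl. It measured 0.208 and 0.200 in the lentiviral replicates, against 0.197 and 0.186. Barcodes of mutant and Ctrl overlapped in all 4 libraries, and the mutant's barcodes spread widely, from 0.228 to 0.858 in episomal replicate 1. The difference on the log2 scale was -0.31 ± 0.37 in the episomal (limma, adjusted p = 0.535) and 0.09 ± 0.39 in the lentiviral vector (limma, adjusted p = 0.852). Without barcode 1 the episomal difference was 0.0007, and without barcode 4 the lentiviral one was -0.34, so these 4 barcodes set no direction. RNA without division by DNA gave a called difference of -1.26 in the lentiviral vector (limma, adjusted p = 0.0206), where the mutant also had fewer DNA reads than the Ctrl (9339 and 12546 against 27804 and 30930). Every member mutant had fewer DNA reads than its Ctrl in all 4 libraries. The lentiviral NRF1 mutant of RPLP1, for example, had 15627 and 19529 against 39037 and 45712.

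In the lentiviral vector the NRF1 mutant of NPRL3 spread its starts differently from the Ctrl. There the Ctrl's most used start fell from 42.3% and 36% of reads to 14.9% and 12.1%. The most used start became the one 32 bases downstream, with 26.3% and 23.2% of reads against 14.8% and 18.1% in the Ctrl. Barcodes overlapped at that base: the mutant's ran from 17.6% to 37.2% and from 7.23% to 36.2%. Those of the Ctrl ran from 7.80% to 24.7% and from 9.01% to 27.4%. The start 36 bases downstream held 9.09% and 9.65%, against 2.27% and 2.92%. Reads were gained upstream too: the start 61 bases upstream held 2.62% and 3.60%, against 0% in the Ctrl. The middle 80% of the mutant's lentiviral reads spanned 62 and 84 bases, against 46 in each Ctrl replicate. In the episomal replicates the Ctrl's most used start stayed the leading one in the mutant, with 26.4% and 24.3%. RNA within 5 bases of the Ctrl's most used start, per DNA, was lower by -1.34 ± 0.25 on the log2 scale in the lentiviral vector (2.52-fold; limma, adjusted p = 0.00140), while RNA from the other positions differed by 0.67 ± 0.48 (limma, adjusted p = 0.260). The corresponding episomal differences were -0.63 ± 0.42 (limma, adjusted p = 0.213) and -0.14 ± 0.45 (limma, adjusted p = 0.888). The mean start moved by 4.80 ± 3.47 bases in the episomal (limma, adjusted p = 0.332) and 5.00 ± 3.21 bases in the lentiviral vector (limma, adjusted p = 0.215). Without barcode 4 these shifts were 0.54 and 1.48 bases. The median start moved by 20.0 bases in the lentiviral vector, with an adjusted p of 0.032 (limma).

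In NPRL3-anti, mutation of the NRF1 motif removed most RNA. The mutant measured 0.0435 and 0.0416 RNA per DNA in the episomal replicates, against 2.53 and 2.50 for the Ctrl. It measured 0.128 and 0.0762 in the lentiviral replicates, against 0.933 and 1.04. Every mutant barcode lay below every Ctrl barcode in each library. In episomal replicate 1 barcode 3 of the mutant stood at 0.0929 and the other 3 between 0.0281 and 0.0376, and replicate 2 gave 0.0966 against 0.0266 to 0.0370. The difference was -5.89 ± 0.34 on the log2 scale in the episomal vector (59.3-fold lower; limma, adjusted p = 1.21e-07), the lowest of the 48 mutants tested. It was -3.31 ± 0.27 in the lentiviral vector (9.95-fold lower; limma, adjusted p = 8.77e-06), the second lowest of 51. The lentiviral replicates gave -2.86 and -3.76 one by one.

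The remaining RNA of the NPRL3-anti mutant came mostly from upstream positions in the lentiviral vector. The Ctrl started at many bases: its most used start over the 4 libraries held 11.3% and 11.4% of reads in the episomal replicates, 7 positions held at least 5% each in every library, and the middle 80% of reads spanned 48 to 49 bases. In the lentiviral replicates that start held 12.5% and 11.3%, and the base 5 bases upstream of it held 12.5% and 12.3%, so the leading base of the Ctrl was nearly tied in replicate 1 and lay 5 bases upstream in replicate 2. In the lentiviral vector the mutant's reads were led by the start 27 bases upstream of the Ctrl's most used one, with 12.3% and 20.3%. The starts 25, 33 and 59 bases upstream held 10.9% and 11%, 12.0% and 7.93%, and 6.69% and 8.11%. In the Ctrl each of these 4 starts held 0.021% of reads or less in every library. The stretch from 70 to 21 bases upstream held 81.7% and 77.8% of the mutant's reads in the lentiviral replicates and 53.9% and 46.6% in the episomal ones, as means over barcodes with equal weight. Its episomal RNA per DNA, as the plain mean over barcodes, was 0.0209 and 0.0174 in the mutant. From 20 bases upstream to 2 bases downstream the mutant had 0.0188 and 0.0185, so its episomal RNA was not mostly upstream by that measure. The Ctrl had 23.8% and 23.3%, and 25% and 24.9%, of its reads in the stretch from 70 to 21 bases upstream. The stretch was chosen after the profiles had been seen.

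Measured from the same start in all 4 libraries, the mean start of the NPRL3-anti mutant was at -42 and -36.3 bases in the lentiviral replicates, against -10.4 and -10.3 for the Ctrl. In the episomal replicates it was at -20.2 and -18 bases, against -11.1 and -11.2. Mutant and Ctrl barcodes did not overlap in the lentiviral replicates, and in the episomal ones they did, since the mutant's barcodes ran from -31 to -8.17 bases in replicate 1. The shift was -28.8 ± 1.9 bases in the lentiviral (limma, adjusted p = 5.36e-06) and -7.93 ± 3.86 bases in the episomal vector (limma, adjusted p = 0.148). Without barcode 3, whose RNA per DNA was the highest of the mutant's 4 in the episomal vector, the episomal shift was -12.2 bases (limma, adjusted p = 0.014). That barcode had 63.9% and 60.3% of its episomal reads between 20 bases upstream and 2 bases downstream of the Ctrl's most used start, where the lowest barcode of the mutant had 11.5% in both replicates and the Ctrl's barcodes had 57.5% to 66.4%. The mutant had 1740 and 1569 RNA reads in the episomal and 1143 and 802 in the lentiviral replicates over all barcodes, which limits what its single positions can show.

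RNA fell both at and away from the Ctrl's most used start. The window of 5 bases to each side was centred on that start in the lentiviral vector. In the episomal vector its centre lay 5 bases upstream of it, so the vectors' windows cover different bases. Inside the window, RNA per DNA was lower by -7.65 ± 0.82 on the log2 scale in the episomal (limma, adjusted p = 4.58e-05) and -5.59 ± 0.31 in the lentiviral vector (limma, adjusted p = 1.94e-07). At the other positions it was lower by -5.30 ± 0.23 in the episomal (limma, adjusted p = 4.08e-08) and -2.61 ± 0.32 in the lentiviral vector (limma, adjusted p = 8.40e-05). The positions outside the window held 53.3% to 58% of the Ctrl's own reads. Inside the episomal window the mutant's barcodes had an SD of 2.02 on the log2 scale, against 0.235 for the Ctrl. Its lowest episomal barcode had 72 RNA reads over all positions. The size of the episomal fall inside the window therefore depends in part on the 1 read added.

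The effect of the NRF1 mutation differed between NPRL3 and NPRL3-anti. Whether the same bases were changed in both is not known. The effect in NPRL3 minus that in NPRL3-anti was 5.58 ± 0.50 on the log2 scale in the episomal (limma, adjusted p = 1.37e-09) and 3.41 ± 0.51 in the lentiviral vector (limma, adjusted p = 2.44e-05). These tests of 1 motif at a pair of loci were added after the data had been seen. They covered 56 comparisons in the episomal vector and 65 in the lentiviral one, of which 50% and 64.6% passed. NPRL3-anti also fell below RPLP1, by -5.68 ± 0.40 and -3.93 ± 0.36 (limma, adjusted p = 3.72e-11 and 2.03e-07). Sense NPRL3 against RPLP1 gave -0.10 ± 0.42 (limma, adjusted p = 0.852) and -0.52 ± 0.48 (limma, adjusted p = 0.331).

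Mutation of the NFY motif in RPLP1 widened the start region without a called change in total RNA. The mutant measured 6.34 and 6.41 RNA per DNA in the episomal replicates, against 8.63 and 8.03 for the Ctrl. It measured 5.12 and 4.95 in the lentiviral replicates, against 4.57 and 4.35. The mutant's means were thus below the Ctrl's in the episomal and above them in the lentiviral replicates. The difference on the log2 scale was -0.39 ± 0.19 in the episomal (limma, adjusted p = 0.115) and 0.18 ± 0.25 in the lentiviral vector (limma, adjusted p = 0.596). The edgeR quasi-likelihood test on the counts called the episomal difference, at -0.42 with an adjusted p of 0.0468, and RNA without division by DNA turned the lentiviral one to -0.84 (limma, adjusted p = 0.139).

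The RPLP1 Ctrl started within a few bases. The middle 80% of its reads spanned 4 bases in each of the 4 libraries, and the stretch from 5 bases upstream to 2 bases downstream of its most used start held 93.7% to 97% of them. In the NFY mutant the middle 80% of reads spanned 44 and 46 bases in the episomal and 44 and 44 in the lentiviral replicates. The stretch from 58 to 18 bases upstream, chosen after the profiles were seen, held 23.7% and 26.3% of the mutant's reads in the episomal replicates and 20.6% and 20.3% in the lentiviral ones. In the Ctrl it held 2.05% and 2.22%, and 0.585% and 0.692%. In each library the mutant's lowest barcode, at 17.7% or more, lay above the Ctrl's highest, at 4.74% or less. The most used upstream starts of the mutant lay 49 bases upstream, with 5.14%, 6.27%, 4.09% and 3.89% of reads, and 31 bases upstream, with 5.00%, 5.42%, 3.63% and 4.08%. The start 49 bases upstream held 0.156% or less in the Ctrl.

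Measured from the Ctrl's most used start, the mean start of the NFY mutant was at -9.90 and -11 bases in the episomal and at -8.68 and -8.46 bases in the lentiviral replicates. The Ctrl's own means were at -0.961 and -1.08, and at -0.562 and -0.583 bases. The shift was -9.45 ± 0.68 bases in the episomal (limma, adjusted p = 1.48e-05) and -8.00 ± 0.45 bases in the lentiviral vector (limma, adjusted p = 2.40e-06). The median start moved by 0.0 bases in the lentiviral vector, since most reads of the mutant still started at the Ctrl's main bases. RNA more than 5 bases from the Ctrl's most used start, per DNA, was 1.84 ± 0.20 higher on the log2 scale in the episomal (3.59-fold; limma, adjusted p = 3.78e-05) and 3.34 ± 0.25 higher in the lentiviral vector (10.1-fold; limma, adjusted p = 2.82e-06). RNA within 5 bases of it fell by 0.81 ± 0.22 in the episomal vector (limma, adjusted p = 0.00916), and in the lentiviral vector it differed by -0.18 ± 0.26 (limma, adjusted p = 0.572). For the episomal values this window was centred 1 base downstream of that start.

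Mutation of the NRF1 motif in RPLP1 left the start region narrow. The mutant measured 7.62 and 6.80 RNA per DNA in the episomal replicates, against 8.63 and 8.03 for the Ctrl, and their barcodes overlapped. It measured 7.23 and 6.43 in the lentiviral replicates, against 4.57 and 4.35, with every mutant barcode above every Ctrl barcode. The difference was -0.21 ± 0.19 on the log2 scale in the episomal (limma, adjusted p = 0.404) and 0.61 ± 0.22 in the lentiviral vector (limma, adjusted p = 0.0348). The lentiviral call was lost without barcode 2, 3 or 4, at 0.69, 0.49 and 0.47 with adjusted p of 0.0751, 0.142 and 0.177 (limma), and RNA without division by DNA gave -0.64 (adjusted p = 0.251, limma). The middle 80% of reads spanned 4 bases in the episomal and 3 in the lentiviral replicates. The base 1 downstream of the Ctrl's most used start held 29.8% and 29.2% of reads in the episomal and 36.6% and 36.1% in the lentiviral replicates, against 24.2%, 23.2%, 27% and 25.8% in the Ctrl. It was the leading base of the mutant in all 4 libraries, and of the Ctrl in lentiviral replicate 1. The mean start moved by 0.62 ± 0.52 bases in the episomal (limma, adjusted p = 0.398) and 0.36 ± 0.32 in the lentiviral vector (limma, adjusted p = 0.361).

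The distance between whole start profiles, counted as the mean number of bases by which reads would have to move to turn one profile into the other, put the mutants in the same frame. For the Usf2 mutant of NPRL3 it was 14.8 bases in the episomal vector and 14.5 in the lentiviral one. For the NRF1 mutant of NPRL3-anti it was 11.3 and 28.8 bases, and for the NFY mutant of RPLP1 9.45 and 8.02 bases. For the NRF1 mutant of sense NPRL3 it was 4.82 and 11.7 bases, and for that of RPLP1 0.647 and 0.391 bases. For comparison, the replicates of 1 member insert lay between 0.0527 and 5.81 bases apart, and the median over all mutants was 4.86 bases in the episomal vector and 6.71 in the lentiviral one. The exact permutation test over the 35 splits of 8 barcodes cannot give a p below 0.0286. In the episomal vector 0% of the 48 mutants passed after Benjamini-Hochberg adjustment, although 26 had an unadjusted p under 0.05. The member NRF1 mutants were not among these 26 (exact permutation, unadjusted p = 0.114 for NPRL3-anti, 0.257 for NPRL3 and 0.0571 for RPLP1). In the lentiviral vector 67.3% of 49 passed, among them every member mutant except the NRF1 mutant of RPLP1 (exact permutation, adjusted p = 0.0424 for each of the 4 and 0.144 for RPLP1). All of these passes were at the smallest p, which 33 mutants shared in the lentiviral and 26 in the episomal vector. Whether a mutant at that p passed therefore depended on how many others shared it. The Usf2 mutant of NPRL3 and the NFY mutant of RPLP1 had it in both vectors. The counts that passed thus cannot tell the vectors apart.

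The vectors differed in the effect of some of the mutations on RNA. The lentiviral minus the episomal effect, tested on the difference of the same barcodes, was 2.57 ± 0.53 on the log2 scale for the NRF1 mutant of NPRL3-anti (limma, adjusted p = 0.00462), so the loss was smaller in the lentiviral vector. It was 0.82 ± 0.18 for the NRF1 mutant of RPLP1 (limma, adjusted p = 0.00587) and 0.56 ± 0.20 for its NFY mutant (limma, adjusted p = 0.0488). The RPLP1 calls and that of NPRL3-anti were lost for RNA without division by DNA (limma, adjusted p = 0.408, 0.522 and 0.0861 for the NRF1 and NFY mutants of RPLP1 and for NPRL3-anti), and that of the NFY mutant also with either replicate alone or without any 1 of the barcodes (adjusted p from 0.053 to 0.157). Both RPLP1 mutants lay below their Ctrl in the episomal and above it in the lentiviral replicates. For NPRL3 it was 0.42 ± 0.18 with the Usf2 mutant (limma, adjusted p = 0.0882) and 0.40 ± 0.31 with the NRF1 mutant (limma, adjusted p = 0.324), and neither passed. Over all mutants 43.8% passed this test. The shift of the mean start differed between vectors for the NRF1 mutant of NPRL3-anti, by -20.9 ± 3.2 bases (limma, adjusted p = 0.00331), and for none of the other 4 member mutants (limma, adjusted p from 0.134 to 0.936). Without replicate 1 the NFY mutant of RPLP1 passed too, at 2.08 bases (limma, adjusted p = 0.0475). Of all mutants, 23.4% passed for the start shift.

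The same motifs were also mutated at loci outside NPRL3 and RPLP1. For Usf2 there were 2, and the mutant of HBE1-HS2neg, from the control region of the beta-globin genes, had less RNA in both vectors (-1.96 ± 0.25 and -2.91 ± 0.28; limma, adjusted p = 6.96e-05 and 1.95e-05). The Usf2 mutant of SF3B1, a splicing factor gene, differed in RNA by 0.07 ± 0.23 and 0.02 ± 0.26 (limma, adjusted p = 0.785 and 0.954). Its mean start moved by 1.74 ± 1.15 bases in the episomal (limma, adjusted p = 0.284) and 4.57 ± 1.21 bases in the lentiviral vector (limma, adjusted p = 0.0138). The effect on RNA at NPRL3 was 2.74 ± 0.38 and 3.20 ± 0.45 above that at SF3B1 (limma, adjusted p = 2.47e-06 and 1.53e-05), so of the 3 loci NPRL3 was the 1 where the mutant gained RNA. For NRF1 the mutant of SF3B1 was called lower in the episomal vector (-0.75 ± 0.20; limma, adjusted p = 0.00927), and that of the globin gene HBQ in the lentiviral one (-1.94 ± 0.36; limma, adjusted p = 0.00174). The lentiviral difference at SF3B1 was 0.25 ± 0.21 (limma, adjusted p = 0.339), and its lentiviral minus episomal effect was 1.00 ± 0.20 (limma, adjusted p = 0.00459). For NFY, 4 of 5 other loci had less RNA in the episomal vector and 5 of 5 in the lentiviral one, where 43.8% and 41.2% of all mutants were called lower. In the lentiviral vector the effect at each of these 5 was below that at RPLP1, by -0.82 ± 0.30 at JUN to -3.30 ± 0.32 at HBE1-HS1neg (limma, adjusted p = 0.0256 and 2.63e-07). In the episomal vector ACTB passed that comparison (-1.32 ± 0.37; limma, adjusted p = 0.00588) and the other 4 did not (limma, adjusted p from 0.108 to 0.446).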

How the data were processed

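The authors deposited, for the short libraries of each vector, a table that holds whole-number counts of RNA and DNA reads for every barcode of an insert, per the file headers. It also gives, column by column along the insert, which fraction of a barcode's RNA begins at that base (deposited as fractions that sum to 1 or 0). Per the submitters' processing notes, STAR 2.7.9a and hg38 were used. How reads were assigned to mutants and counted is not given in the sources used here. Each table stacks 4 blocks, and the first 2 were taken as replicates 1 and 2 from the order of names that the table carries, the only basis for the replicate numbers. The blocks named as csRNA had no DNA reads and were not used. Long libraries were not used here.

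Barcodes needed at least 20 DNA reads in each replicate, inserts at least 2 barcodes and pairs a mean of 10 RNA reads per barcode. Start positions needed 20 RNA reads. log2 RNA per DNA and mean start were averaged over replicates and compared with limma 3.58.1 in R 4.3.3 at an adjusted p under 0.05, with edgeR 4.0.16 on the counts as an alternative. The fits were tested on simulated data. Members, motif lists and tests were chosen with earlier results of these data known. All 5 member mutants are named, and other loci only where they carry a mutant of the same motif. Motifs were sought on both strands of RefSeq promoter windows.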

Additional observations from a re-analysis of the deposited data

Results flagged for a closer look

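For 3 of the 5 member mutants the effect on RNA per DNA differed between the vectors by the test of the difference itself, and for 1 of them the start shift did too. Over all mutants 43.8% passed the test on RNA per DNA and 23.4% that on the start shift. The NRF1 mutant of NPRL3-anti differed by 2.575 on the log2 scale (lentiviral minus episomal), with a range of 1.89 to 3.04 over 13 alternatives, of which RNA without division by DNA, the lowest, did not pass (limma, adjusted p = 0.0861). Its start shift differed by -20.8561 bases, and by -22.5 and -19.2 bases in replicates 1 and 2. The NRF1 mutant of RPLP1 differed by 0.8232, and the call was lost for RNA without division by DNA (0.65; limma, adjusted p = 0.408). The NFY mutant of RPLP1 differed by 0.5615, and 8 of 13 alternatives did not pass, among them each replicate alone (0.61 and 0.51; limma, adjusted p = 0.053 and 0.0806).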

How the results depend on the processing

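The gain of the Usf2 mutant of NPRL3 and the loss of the NRF1 mutant of NPRL3-anti kept their direction and passed the test under all 14 alternatives in each vector: 2.04 to 3.11 and 2.27 to 3.61 for the gain, -6.72 to -5.69 and -4.83 to -2.86 for the loss (log2, episomal and lentiviral). RNA without division by DNA, which leaves the unequal amounts of the inserts in place, gave 13 called mutants against 25 in the episomal vector and 11 against 21 for the vector difference. With it the sign turned for the lentiviral NRF1 mutants of NPRL3 (-1.26) and RPLP1 (-0.64), the lentiviral NFY mutant of RPLP1 (-0.84) and the vector difference of the NRF1 mutant of NPRL3 (-0.058). Sign also turned for the NRF1 mutant of NPRL3 without barcode 1 (episomal) and barcode 4 (lentiviral): leaving out 1 barcode or replicate, it ran from -0.55 to 0.0007 and from -0.34 to 0.35, and its start shift difference from -0.344 to 0.7507 bases. The median start gave 7 called shifts against 16 in the episomal and 14 against 29 in the lentiviral vector. Leaving out 1 barcode or replicate gave 20 to 27 called mutants (episomal), 27 to 31 (lentiviral) and 12 to 19 (vector difference), and 11 to 18 and 23 to 30 start shifts (episomal and lentiviral); for the vector difference of the start shift only replicates were left out, with 10 called each time. The lowest vector difference count for RNA came without barcode 1. With the replicate number as a block, 23, 29 and 22 mutants and 17 and 31 start shifts were called, and no member call changed. Replicate deviations of the vectors correlated at 0.165 over 78 inserts, and nothing in the labels pairs them. Windows of 10 bases, chosen after seeing the data, changed no member call. The lentiviral profile distances passed at the smallest p that 35 splits can give. Single positions of the NRF1 mutant of NPRL3-anti rest on few RNA reads.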
